A study of Mus musculus with 6 samples.

Results

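Reg1, Reg3a, Reg3b, Reg3g and Reg4 encode small secreted proteins of the regenerating family, which are built on a C-type lectin fold, and Retnlb encodes resistin-like beta, a secreted protein of goblet cells. Probe sets were matched to these 6 genes by symbol in the array annotation, and they are 6 of 19505 genes measured. Each had 1 probe set, so no choice among probe sets was needed, and all 6 identifiers were found in a mouse gene table. RNA labelled as colon crypt RNA from C57BL/6J mice was hybridised to 6 single-colour Affymetrix arrays. The MBELN group has 3 arrays, from mice that swallowed daily doses of MBELN by gavage over 7 days. MBELN stands for nanoparticles like exosomes that are purified from the bark of mulberry, an edible plant. The PBS group has 3 arrays, from mice labelled as controls, whose titles name PBS. Age and sex were not given in the labels. Nothing in the labels ties each array to its own animal, so the spread behind the p-values may be technical.

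In the gut, Reg3g and Reg3b are known as antibacterial lectins of Paneth cells and enterocytes of the small intestine. Reg3g binds the peptidoglycan of Gram-positive bacteria and keeps bacteria off the epithelial surface. Both genes are known to be induced by bacterial signals through MyD88 and by interleukin-22 through STAT3. Reg1 and Reg3a are best known from the exocrine pancreas and the injured gut. Reg4 is known as a marker of enteroendocrine cells and of the deep crypt secretory cells of the colon. Resistin-like beta is known to be induced by bacterial colonisation and by the type 2 cytokines interleukin-4 and interleukin-13, and it acts in defence against worms and bacteria.

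The promoter windows of 4 genes are shown because the Reg genes of 1 cluster gave different patterns on the arrays. Reg3b and Reg3g had the same pattern over the arrays, Reg3d lies next to Reg3b and stayed near background, and Reg4 was the member that passed the test. Each window runs from 250 bases before to 50 bases after the transcript start, 5′ to 3′ on the strand of the gene, from RefSeq on build GRCm38.p6. Capitals in Reg3b and Reg3g mark the longest run of bases that these windows share. Capitals in Reg3d mark the longest run that it shares with Reg3b, and Reg4 has no capitals. The Reg3b window lies at chr6:78370635-78370934 on the plus strand, the Reg3g window at chr6:78468825-78469124 on the minus strand, the Reg3d window at chr6:78378816-78379115 on the minus strand and the Reg4 window at chr3:98221906-98222205 on the plus strand.
Reg3b: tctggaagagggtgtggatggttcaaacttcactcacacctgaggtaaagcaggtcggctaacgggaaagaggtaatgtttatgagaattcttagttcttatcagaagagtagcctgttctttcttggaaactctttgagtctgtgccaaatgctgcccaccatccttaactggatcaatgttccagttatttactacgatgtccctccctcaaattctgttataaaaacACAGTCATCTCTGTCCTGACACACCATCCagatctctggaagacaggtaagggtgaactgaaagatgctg
Reg3g: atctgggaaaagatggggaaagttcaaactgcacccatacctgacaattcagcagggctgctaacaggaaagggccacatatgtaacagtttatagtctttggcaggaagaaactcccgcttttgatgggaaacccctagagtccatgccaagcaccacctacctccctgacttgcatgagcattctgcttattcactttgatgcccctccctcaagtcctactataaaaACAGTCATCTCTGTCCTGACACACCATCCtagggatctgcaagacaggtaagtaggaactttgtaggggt
Reg3d: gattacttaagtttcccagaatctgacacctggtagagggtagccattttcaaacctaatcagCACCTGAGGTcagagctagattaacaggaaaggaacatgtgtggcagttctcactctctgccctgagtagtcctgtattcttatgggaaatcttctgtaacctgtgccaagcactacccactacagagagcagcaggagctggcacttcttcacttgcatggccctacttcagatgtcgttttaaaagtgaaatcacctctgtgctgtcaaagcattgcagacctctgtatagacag
Reg4: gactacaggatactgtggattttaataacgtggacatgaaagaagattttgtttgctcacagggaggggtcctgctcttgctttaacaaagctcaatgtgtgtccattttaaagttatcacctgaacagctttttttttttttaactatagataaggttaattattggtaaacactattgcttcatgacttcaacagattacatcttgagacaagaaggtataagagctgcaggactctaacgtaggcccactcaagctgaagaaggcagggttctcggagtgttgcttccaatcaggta

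In a global alignment, the Reg3b and Reg3g windows were identical at 210 of 306 alignment columns, 68.6%, and their longest shared run was 29 bases. With the transcript start counted as 0, this run lay from -20 to 8 in both genes. The other 20 pairs among the windows of Reg3b, Reg3d, Reg3a, Reg2, Reg1, Reg3g and Reg4 were identical at 45.7% to 56.4% of columns, with longest shared runs of 6 to 14 bases. Reg3b and Reg3d were identical at 53.6% of columns, and Reg3b and Reg4 at 47.3%. Promoter windows were found for 5 of the 6 members, all but Retnlb.

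The letters TATAAA, searched on both strands, were found at -29 in Reg3b, -27 in Reg3g, -30 in Reg1 and -30 in Reg2, all on the strand of the gene. They were also found on the other strand at -161 in Reg3g and at 35 in Reg1, and had no match in the Reg3a, Reg3d and Reg4 windows. Of 32851 promoter windows of the same length, 13.6% held them. The letters TTCNNNGAA, the palindrome that STAT proteins are known to bind, matched at -129 in Reg3b and at -238 in Reg3d, and 8.30% of all windows held them. The letters AGATAA, bound by GATA factors, matched at -101 in Reg4, and 11.2% of all windows held them. These searches did not overlap in letters, and a match describes the window only.

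The arrays went against their tissue label, and this bears on every comparison that follows. Values are log2. Background is taken from 1414 probe sets for olfactory and vomeronasal receptors: their 95th percentile, called the receptor level here, lay between 3.99 and 4.44 over the arrays. The median of 8 colon genes was 3.18, 2.81 and 3.04 in MBELN 1, 2 and 3, against 2.97, 13.35 and 3.16 in PBS 1, 2 and 3, so PBS 2 was the array with a colon pattern. For 15 heart muscle genes the median was 18.06, 3.75 and 18.39 in MBELN 1, 2 and 3 and between 3.94 and 4.08 in the PBS arrays. The median of 12 neuronal genes was 15.54 in MBELN 2 and at most 4.12 on the other 5 arrays. For 15 genes of gut epithelium the median was 4.46, 3.35 and 4.89 in MBELN 1, 2 and 3, against 16.88, 14.58 and 17.45 in PBS 1, 2 and 3. The median of 12 Paneth cell genes was 4.67, 3.43 and 4.56 in MBELN 1, 2 and 3, against 19.06, 3.69 and 19.60 in PBS 1, 2 and 3. Small intestinal genes, 14 in number, had medians of 8.37, 3.43 and 7.93 in MBELN 1, 2 and 3. In PBS 1, 2 and 3 these were 17.12, 5.72 and 17.40. Above the receptor level were 12, 4 and 13 of the 14 in MBELN 1, 2 and 3, and 13, 10 and 13 in PBS 1, 2 and 3. The tissue the arrays show and the treatment cannot be told apart in this design, and arrays are named below by their labels. Over all transcript probe sets, limma called 1150 of 22206, which is 5.18%, at an adjusted p below 0.05, and 3.76% were called lower in MBELN.

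In the arrays labelled MBELN, Reg4 was far lower than in PBS, and it was the member that passed the test. Reg3b and Reg3g read close to background in all 3 MBELN arrays and in PBS 2, and near the top of the scale in PBS 1 and PBS 3. Reg3a and Reg1 were likewise highest in PBS 1 and PBS 3, with smaller differences, and Retnlb stood out in PBS 1. In limma, 1 of the 6 members was called, lower in MBELN, and the same 1 had an unadjusted p below 0.05. Over all genes, 3620 of 19505 had an unadjusted p below 0.05, and the later counts of this kind are to be read beside that share. The median difference of the members, MBELN minus PBS, was -6.31, and over all genes it was 0.09.

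**Figure D1:**
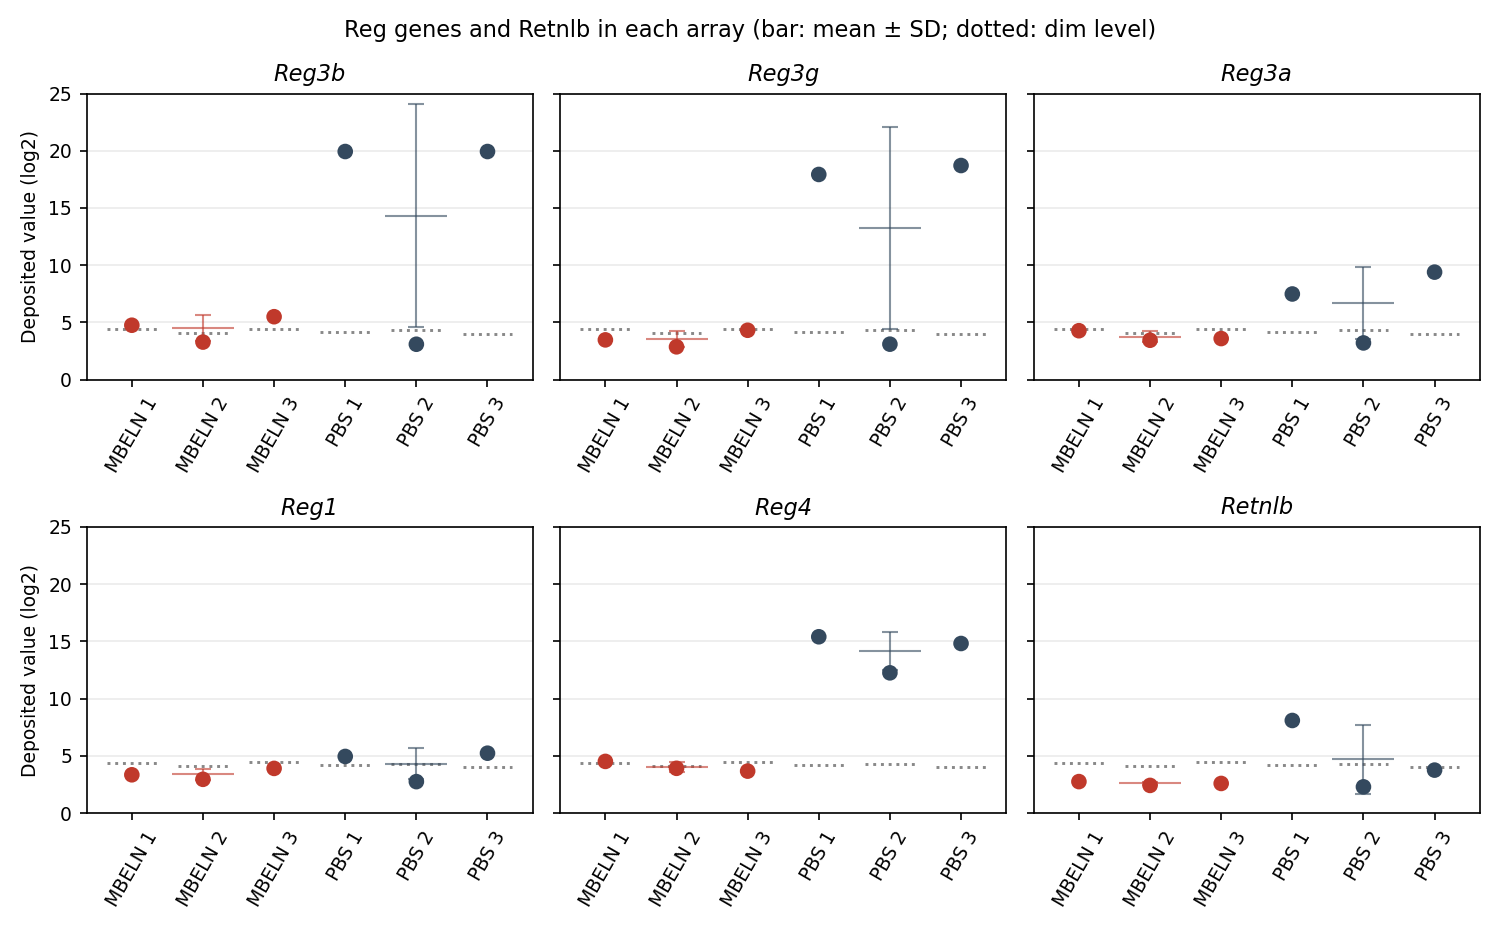
Deposited log2 value of each of the 6 genes (vertical axis) on each array (horizontal axis), with MBELN points on the left and PBS points on the right of each panel. Horizontal bars with whiskers are the mean ± SD of each group (n = 3) and dotted lines are the receptor probe set level of each array. The PBS points of Reg4 all lie above its MBELN points, while PBS 2 lies among or below the MBELN points for the other 5 genes.

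Reg4 read 4.52, 3.92 and 3.67 in MBELN 1, 2 and 3, against 15.41, 12.26 and 14.82 in PBS 1, 2 and 3. All 3 PBS arrays were high and the groups did not overlap, as was so with MBELN lower for 13.4% of all probe sets. The MBELN values lay near or below the receptor level, with 1 of 3 above it. The mean was 4.04 ± 0.44 in MBELN and 14.16 ± 1.68 in PBS (SD, n = 3 each), and Reg4 fell by 10.13 ± 0.87 (SE), with an adjusted p of 0.00379 in limma. An exact permutation test of the 6 arrays, two-sided, gave p = 0.1 for Reg4, the smallest value that 3 against 3 allows. Reg4 stayed past the threshold under all 17 alternatives run, with differences between -11.20 and -8.16 and adjusted p between 6.24e-06 and 0.0302.

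Reg4 was high both in PBS 2, the array with the colon pattern, and in PBS 1 and PBS 3, where the Paneth cell and small intestinal medians were highest. The hybridisation controls split the arrays into a brighter set, MBELN 1, MBELN 3 and PBS 2, and a dimmer set, MBELN 2, PBS 1 and PBS 3. With this split as a block, the Reg4 difference was -9.68 (adjusted p = 0.00650 in limma). Within the brighter set it was -8.16, and within the dimmer set -11.20, with 1 lone array of a group in each. Among the marker lists, the medians of goblet and of gut epithelial genes were likewise high in all 3 PBS arrays. The median of 14 goblet and deep crypt secretory genes was 5.21, 3.72 and 4.85 in MBELN 1, 2 and 3, against 15.74, 15.04 and 15.76 in PBS 1, 2 and 3, and 11 of the 14 fell. Among them Muc2, the gel-forming mucin of the gut, fell by 12.61, and Clca1, a protein secreted with mucus, read 5.02, 2.70 and 4.17 in MBELN 1, 2 and 3, against 19.93, 18.66 and 19.63 in PBS 1, 2 and 3, the first PBS value at the top of the scale. The median of 11 enteroendocrine genes was 4.05, 3.64 and 3.69 in MBELN 1, 2 and 3, against 7.89, 5.67 and 7.87 in PBS 1, 2 and 3. Of the 11, 2 fell, 0 rose and 9 did not pass, and 10, 7 and 10 were above the receptor level in PBS 1, 2 and 3. Chga and Chgb, of this list, were highest in MBELN 2, at 10.05 and 11.97. Of the 15 gut epithelial genes, 14 fell. In RNA of whole samples, fewer cells of a type and less RNA per cell cannot be told apart.

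Reg3b read 4.75, 3.28 and 5.50 in MBELN 1, 2 and 3, against 19.93, 3.09 and 19.93 in PBS 1, 2 and 3. Both high PBS values equal the highest value of the whole table, so they may be capped and the size of the difference is uncertain. PBS 2 was the lowest of the 6 arrays, and the groups overlapped. The mean was 4.51 ± 1.13 in MBELN and 14.32 ± 9.72 in PBS (SD, n = 3 each), a difference of -9.81 ± 4.76 (SE) with an adjusted p of 0.363 in limma. The exact permutation p was 0.4, two-sided.

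Reg3g read 3.48, 2.87 and 4.32 in MBELN 1, 2 and 3, against 17.93, 3.10 and 18.71 in PBS 1, 2 and 3. The MBELN arrays and PBS 2 were all below their receptor level, and the groups overlapped through PBS 2. The mean was 3.55 ± 0.73 in MBELN and 13.25 ± 8.79 in PBS (SD, n = 3 each), a difference of -9.69 ± 4.29 (SE) with an adjusted p of 0.321 in limma and an exact permutation p of 0.3. Set against the receptor level of the MBELN arrays, the MBELN mean was at least 489.8-fold lower than the PBS mean. This bound rests on which PBS arrays enter, and leaving out PBS 1 gave 96.7, PBS 2 16477 and PBS 3 73.7.

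PBS 2 decided the calls of Reg3b, Reg3g and Reg3a. Without PBS 2, the difference was -15.42 for Reg3b (adjusted p = 0.00191 in limma), -14.76 for Reg3g (adjusted p = 0.00167) and -4.67 for Reg3a (adjusted p = 0.0284), and 4 members were called in place of 1. The PBS arrays left, PBS 1 and PBS 3, both carried Paneth cell genes. In the brighter set, Reg3b read 4.75 and 5.50 in MBELN 1 and MBELN 3, against 3.09 in PBS 2, the lone PBS array there. That PBS value lies below its receptor level of 4.33, so the 2.03 between the means is no measured size. In the dimmer set, Reg3b read 3.28 in MBELN 2, the lone MBELN array there and below its receptor level of 4.10, against the top of the scale in PBS 1 and PBS 3, a difference of -16.65 with the same limit. With the split of the hybridisation controls as a block, it was -7.31 (adjusted p = 0.377).

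Reg3a read 4.28, 3.44 and 3.59 in MBELN 1, 2 and 3, against 7.48, 3.21 and 9.39 in PBS 1, 2 and 3. All 3 MBELN arrays and PBS 2 lay below their receptor level. The mean was 3.77 ± 0.44 in MBELN and 6.70 ± 3.17 in PBS (SD, n = 3 each), a difference of -2.93 ± 1.57 (SE) with an adjusted p of 0.413 in limma. The MBELN mean was at least 5.23-fold lower by the receptor level, a bound of 17.5 without PBS 2 and of 2.05 without PBS 3, and the exact permutation p was 0.4.

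Reg1 read 3.35, 2.96 and 3.91 in MBELN 1, 2 and 3, against 4.95, 2.75 and 5.24 in PBS 1, 2 and 3. It was above the receptor level in PBS 1 and PBS 3, by a narrow margin, and in no MBELN array. The mean was 3.41 ± 0.48 in MBELN and 4.32 ± 1.36 in PBS (SD, n = 3 each), a difference of -0.91 ± 0.74 (SE) with an adjusted p of 0.586 in limma and an exact permutation p of 0.4.

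Because Reg1 and Reg3a are also pancreatic genes, digestive enzyme genes of the exocrine pancreas were read on the same arrays. Their median over 13 genes was 3.35, 3.74 and 3.68 in MBELN 1, 2 and 3, against 7.84, 3.42 and 8.05 in PBS 1, 2 and 3. The number above the receptor level was 3, 6 and 3 of 13 in MBELN 1, 2 and 3, and 11, 4 and 12 of 13 in PBS 1, 2 and 3. Prss2, a trypsinogen, read 7.84 in PBS 1 and 7.86 in PBS 3, and 3.04 in PBS 2. Cela1, of the same list, went the other way, with 6.85, 13.60 and 8.05 in PBS 1, 2 and 3. The part of these enzyme genes in the values of the Reg genes was not tested.

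Retnlb read 2.76, 2.42 and 2.59 in MBELN 1, 2 and 3, against 8.10, 2.30 and 3.76 in PBS 1, 2 and 3. PBS 1 was the 1 array above its receptor level, and PBS 2 was the lowest of the 6. The mean was 2.59 ± 0.17 in MBELN and 4.72 ± 3.02 in PBS (SD, n = 3 each), a difference of -2.13 ± 1.48 (SE) with an adjusted p of 0.531 in limma and an exact permutation p of 0.4. Without PBS 1 the difference was -0.44 (adjusted p = 0.809). Retnlb was called in 0 of 16 alternatives, with adjusted p between 0.0947 and 0.809. Genes of goblet cells, the cells known to secrete its product, were high in all 3 PBS arrays, while Retnlb was below the receptor level in PBS 2 and PBS 3.

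**Figure D2:**
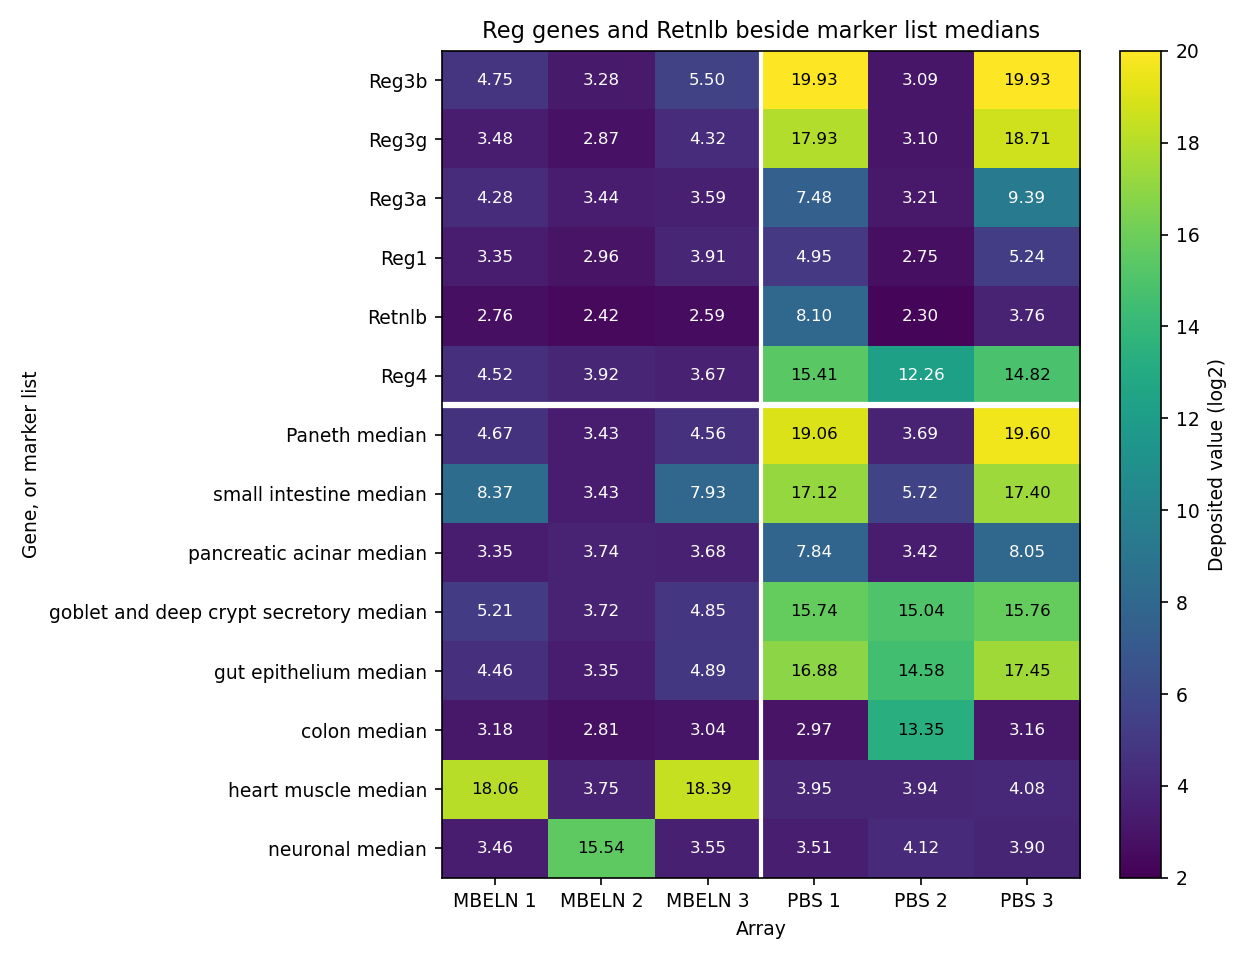
Log2 values by array (columns, MBELN left of PBS) of the 6 genes and of the medians of 8 marker lists (rows), with the value printed in each cell and coloured on a scale of 2 to 20. Reg3b and Reg3g are bright in PBS 1 and PBS 3, as are the Paneth cell and small intestinal medians, while Reg4 is bright in all 3 PBS arrays, as are the goblet cell and gut epithelial medians.

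The cluster of Reg genes on chromosome 6 holds Reg3b, Reg3d, Reg3a, Reg2, Reg1 and Reg3g in that order, with the pseudogene Gm52853, not measured here, between Reg1 and Reg3g. Reg4 lies apart on chromosome 3 and Retnlb on chromosome 16. Within the cluster the pattern was not shared by every gene. Reg3d read 4.14, 2.77 and 3.23 in MBELN 1, 2 and 3, against 3.56, 3.17 and 3.08 in PBS 1, 2 and 3. Reg2, a family member of the pancreas, read 2.66, 2.57 and 2.83 in MBELN 1, 2 and 3, against 2.27, 2.78 and 2.54 in PBS 1, 2 and 3. Both lay below the receptor level on all 6 arrays, with adjusted p of 0.918 for Reg3d and 0.803 for Reg2 in limma. Reg genes are alike in sequence and the probe sequences were not used here, so cross-hybridisation among them was not tested. Reg2 and Reg3d stayed at background on PBS 1 and PBS 3, where Reg3b and Reg3g were brightest.

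**Figure D3:**
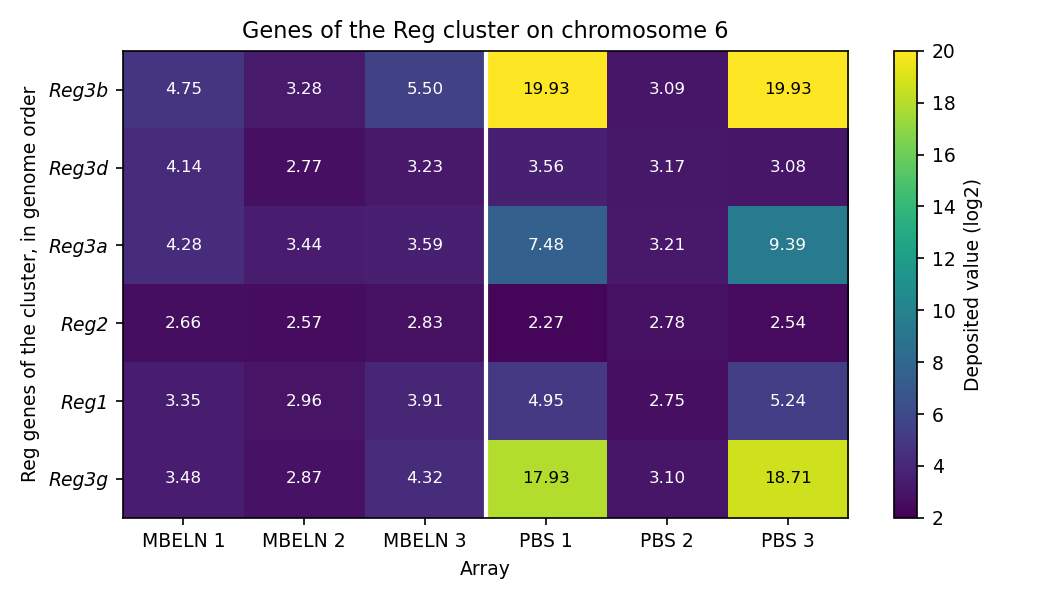
Log2 values by array (columns, MBELN left of PBS) of the 6 measured Reg genes of the chromosome 6 cluster, listed in genome order from top to bottom, with the value printed in each cell. Reg3b, Reg3a, Reg1 and Reg3g are higher in PBS 1 and PBS 3 than on the other arrays, while Reg3d and Reg2 read between 2.27 and 4.14 throughout.

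Among the other resistin family genes, 0 of 3 passed the test in limma, and 0 of 3 had an unadjusted p below 0.05. Retnla, the resistin-like protein of macrophages and fat tissue, read 7.88, 3.28 and 8.34 in MBELN 1, 2 and 3, against 5.65, 9.24 and 3.65 in PBS 1, 2 and 3, an order unlike that of Retnlb. Retn, the adipocyte hormone resistin, had its highest value, 7.69, in PBS 2, and Retnlg was below the receptor level on all 6 arrays.

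The members also differed in which other genes had the most similar pattern. Likeness was measured among 18425 genes as the root mean square difference over the 6 arrays, in log2, after each gene was centred on its own mean. Reg3b and Reg3g differed from each other by 0.65. The genes nearest to Reg3b were Defa22 (0.36) and Defa21 (0.51), both alpha-defensins of Paneth cells, followed by Reg3g. Reg3b and Defa21 stood at the top of the scale in PBS 1 and PBS 3 and Defa22 in PBS 3. These distances and their order thus rest partly on values that may be saturated. The genes nearest to Reg3g were Ang4, a Paneth cell ribonuclease (0.30), and the alpha-defensins Defa35 (0.37) and Defa43 (0.39). These genes share the split between PBS 1 and PBS 3 on one side and the other 4 arrays on the other, so each pattern rests on that split.

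For Reg4 the nearest genes were Hepacam2, an adhesion molecule of the immunoglobulin family (0.53), Btnl5-ps, a butyrophilin-like pseudogene (0.56), and Pls1, the plastin of microvilli (0.57). Hepacam2 read 3.36, 3.16 and 3.38 in MBELN 1, 2 and 3, against 14.06, 12.47 and 13.86 in PBS 1, 2 and 3. For Reg3a they were Habp2, a hyaluronan-binding serine protease (0.44), Exoc3l4 (0.45) and Sct, the hormone secretin (0.50). For Retnlb they were Cd8a, a T cell coreceptor (0.60), Hpse2 (0.63) and Tnfrsf13c, the BAFF receptor of B cells (0.67). Cd8a read 3.11, 2.64 and 2.76 in MBELN 1, 2 and 3, against 6.84, 2.92 and 3.96 in PBS 1, 2 and 3, so PBS 1 was again the high array. Reg1 spans few log2 units, and the nearest genes to it, Aurka (0.16), Fgfrl1 (0.19) and Hoxb3 (0.21), encode a mitotic kinase, an FGF receptor relative and a homeobox factor. Without PBS 2, 0 of the 3 nearest genes were shared for Reg1, Reg3a and Retnlb.

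**Figure D4:**
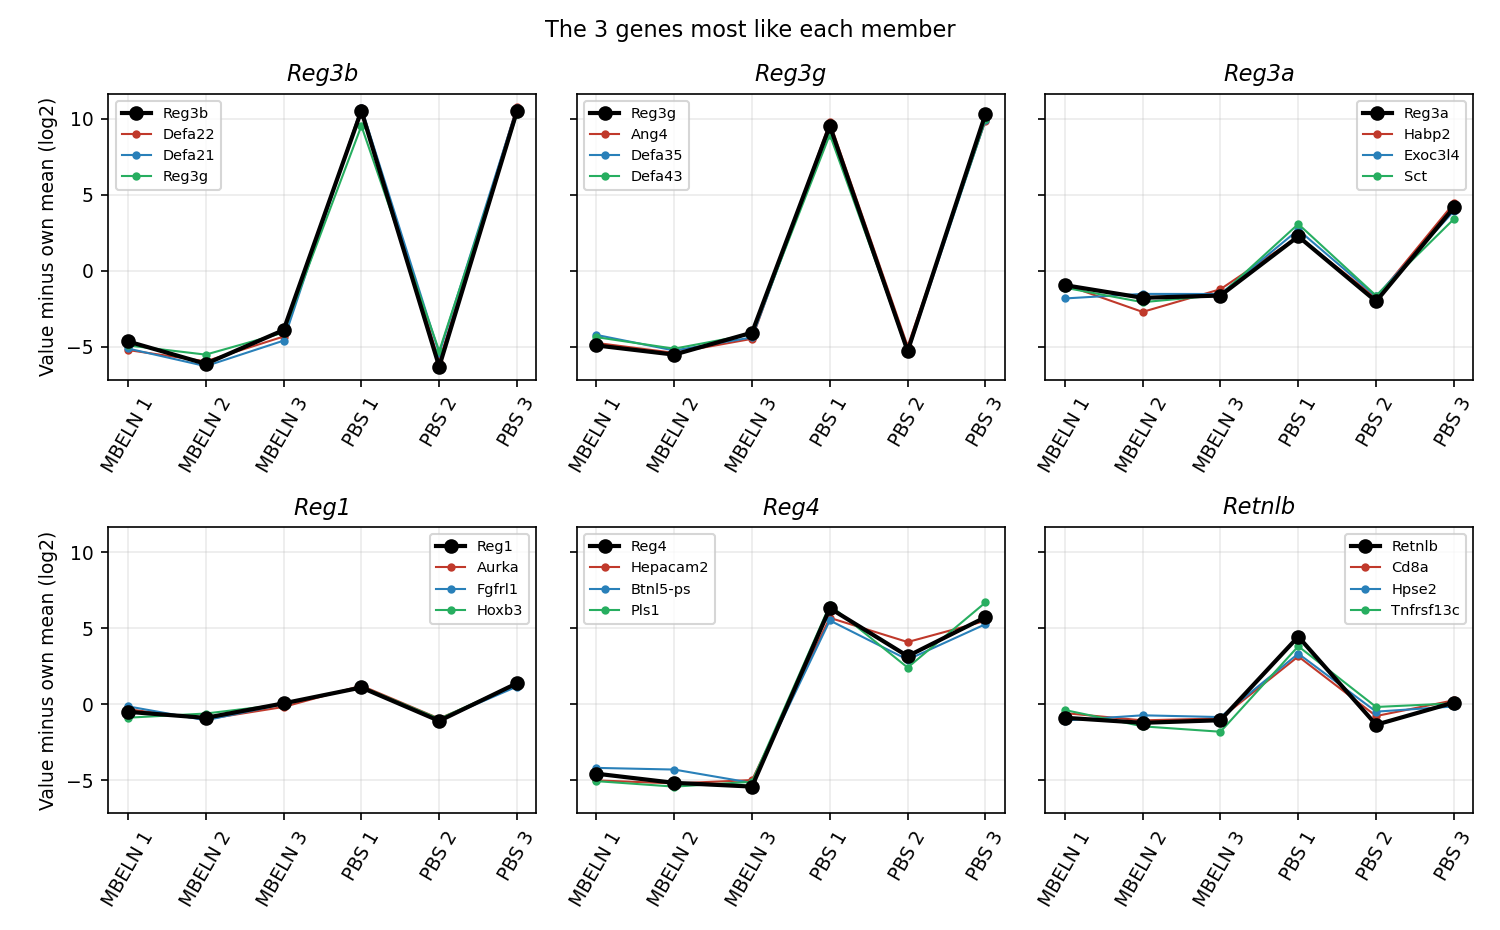
Value minus the gene's own mean over the 6 arrays (vertical axis, log2) on each array (horizontal axis, MBELN left of PBS) for each member in black and for the 3 genes nearest to it in colour. The Reg3b and Reg3g panels rise in PBS 1 and PBS 3 alone, the Reg4 panel in all 3 PBS arrays and the Retnlb panel in PBS 1.

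Cytokines known to induce Reg3 genes were at background, while part of the receptor apparatus was lower in MBELN. Of 16 genes of interleukin-22, interleukin-6, interleukin-17 and STAT3 signalling, 3 fell, 0 rose and 13 did not pass. Their median difference was -0.37, and 6 were below the receptor level on all 6 arrays. Il22 read between 2.62 and 3.11 over the arrays, and Il6, Il17a and Il17f were also at background. Il22ra1, the epithelial subunit of the interleukin-22 receptor, read 4.69, 3.01 and 3.78 in MBELN 1, 2 and 3, against 12.72, 12.11 and 12.14 in PBS 1, 2 and 3, and fell by 8.50 ± 0.50 (SE, adjusted p = 0.00143 in limma). It was high in PBS 2, where Reg3b and Reg3g were at background.

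Il17rc, a subunit of the interleukin-17 receptor, read 7.83, 5.96 and 7.42 in MBELN 1, 2 and 3, against 15.38, 12.58 and 14.85 in PBS 1, 2 and 3, and fell by 7.20 ± 0.90 (SE, adjusted p = 0.0125 in limma). Jak2, a kinase upstream of STAT3, fell by 3.42 ± 0.50 (SE, adjusted p = 0.0211). Tyk2, the kinase bound to the interleukin-22 receptor complex, had a difference of -2.55 and an adjusted p of 0.0735, and Stat3 itself one of -1.71 and 0.289. The count of 3 was 1 without PBS 1, without PBS 3 or without MBELN 3, and 5 without MBELN 2. Il17rc lost its call without PBS 1 (adjusted p = 0.0620), PBS 3 (0.0734) or MBELN 3 (0.0610), and Jak2 without PBS 1 (0.113), PBS 3 (0.104), MBELN 1 (0.0802) or MBELN 3 (0.0949).

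Of 13 measured genes of the type 2 cytokine route, which is known to induce Retnlb, 0 passed in limma, 1 had an unadjusted p below 0.05, and the median difference was -0.30. Il4, Il5, Il13 and Il25 were below the receptor level on all arrays. Il13ra1, a receptor subunit for interleukin-13, read 8.86, 5.31 and 8.93 in MBELN 1, 2 and 3, against 12.31, 12.26 and 12.06 in PBS 1, 2 and 3, and its difference of -4.52 ± 1.03 (SE) had an adjusted p of 0.0784. Stat6, the transcription factor of this route, had a difference of -2.27 and an adjusted p of 0.299. Il4ra, the shared receptor chain, had one of -2.38 and 0.450, and Il33, an epithelial alarmin, one of 1.91 and 0.336. Without MBELN 2, 1 of the 13 was called.

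Of 14 measured genes that sense microbes, 1 fell, 0 rose and 13 did not pass, with 5 at an unadjusted p below 0.05 and a median difference of -0.63. Tlr3, the receptor for double-stranded RNA, read 7.81, 7.19 and 7.95 in MBELN 1, 2 and 3, against 10.53, 9.60 and 10.65 in PBS 1, 2 and 3, and fell by 2.61 ± 0.41 (SE, adjusted p = 0.0264 in limma). Leaving out PBS 1 (adjusted p = 0.134), PBS 3 (0.125), MBELN 1 (0.0953) or MBELN 3 (0.0867) ended this call, as did a trended robust variance (0.0704), and the count was 3 without PBS 2 and 4 without MBELN 2. Myd88, the adaptor known to be needed for Reg3g induction, read 6.48, 3.93 and 5.61 in MBELN 1, 2 and 3, against 7.77, 7.28 and 8.02 in PBS 1, 2 and 3, with an adjusted p of 0.152. Irak2, a kinase of the same route, had a difference of -2.35 and an adjusted p of 0.0503, Ticam1, the adaptor of TLR3, one of -3.21 and 0.0846, and Tlr1 was at least 7.44-fold lower with 0.129. Without PBS 2 the Tlr1 bound was 3.40-fold, with a difference of -2.48 and an adjusted p of 0.0266, and without PBS 3 it was 11.9-fold.

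Extl3, proposed as a receptor for Reg proteins, had higher values in every MBELN array than in any PBS array. The groups did not overlap, in 1 direction or the other, for 5629 of 22206 probe sets. It read 9.13, 11.74 and 8.83 in MBELN 1, 2 and 3, against 7.38, 6.89 and 6.57 in PBS 1, 2 and 3, a difference of 2.95 ± 0.84 (SE) with an adjusted p of 0.136 in limma. Cap1, proposed as a receptor for human resistin, read 13.29, 15.63 and 12.88 in MBELN 1, 2 and 3, against 16.74, 16.90 and 16.49 in PBS 1, 2 and 3, with a difference of -2.78 and an adjusted p of 0.127. Tlr4, also proposed for resistin, read 9.27, 3.92 and 8.61 in MBELN 1, 2 and 3, against 5.69, 11.17 and 5.75 in PBS 1, 2 and 3, with an adjusted p of 0.966. With MBELN 2 and PBS 2 left out, Tlr4 was 3.22 higher in MBELN (adjusted p = 0.000559 in limma). That fit drops the array of unlike tissue pattern in each group, so its p-value carries little weight. Of these 3 candidate receptors, 0 passed and 2 had an unadjusted p below 0.05. Without MBELN 2, 2 passed.

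Other epithelial genes that interleukin-22 is known to induce were partly lower in MBELN. Of 15 measured, 5 fell, 0 rose and 10 did not pass, with a median difference of -4.08. Dmbt1, a secreted scavenger receptor of mucosa, read 5.68, 3.65 and 5.13 in MBELN 1, 2 and 3, against 18.14, 19.92 and 18.20 in PBS 1, 2 and 3, and fell by 13.93 ± 0.74 (SE, adjusted p = 0.00111 in limma). Lypd8, which keeps flagellated bacteria off the colon epithelium, fell by 13.58 ± 1.04 (adjusted p = 0.00265), and Pigr, the transporter of secretory IgA, fell by 13.92 ± 1.33 (adjusted p = 0.00544). Duoxa2, the maturation factor of the oxidase DUOX2, was at least 133-fold lower (adjusted p = 0.0118). Its adjusted p was 0.0558 without PBS 1 and 0.0643 without MBELN 3, and its bound was 83.3-fold without PBS 1 and 274-fold without PBS 3. The count of 5 was 3 without PBS 1 or without MBELN 3, and 8 without PBS 2. All 4 of these genes were high in every PBS array, unlike Reg3b and Reg3g.

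Of 12 measured regulators of secretory cell fate and gut identity, 6 fell, 0 rose and 6 did not pass, with a median difference of -3.71. In all 12 the groups did not overlap, with MBELN lower, as was so for 13.4% of all probe sets. Hnf4a, a nuclear receptor of gut epithelium, read 2.95, 3.29 and 2.90 in MBELN 1, 2 and 3, against 14.82, 13.59 and 14.58 in PBS 1, 2 and 3, at least 1039-fold lower (adjusted p = 0.000542 in limma). Cdx1, an intestinal homeobox factor that also stands in the gut epithelial list, fell by 5.17 ± 0.40 (SE, adjusted p = 0.00269). Foxa1, a forkhead factor of secretory cells, was at least 15.0-fold lower (adjusted p = 0.0124), or 8.95-fold without PBS 2, and its relative Foxa3 at least 3.59-fold lower (adjusted p = 0.0275). The count of 6 was 2 without PBS 1, without MBELN 1 or without MBELN 3, and 3 without PBS 3. Foxa1 lost its call without PBS 1 (0.0619), MBELN 1 (0.0651) or MBELN 3 (0.0573), and Foxa3 without PBS 1 (0.107), PBS 3 (0.133), MBELN 1 (0.107) or MBELN 3 (0.105). As with Reg4, these 4 genes were above the receptor level in all 3 PBS arrays. Foxa3 was far dimmer there than Reg4, at 6.81, 5.43 and 6.22 in PBS 1, 2 and 3.

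**Figure D5:**
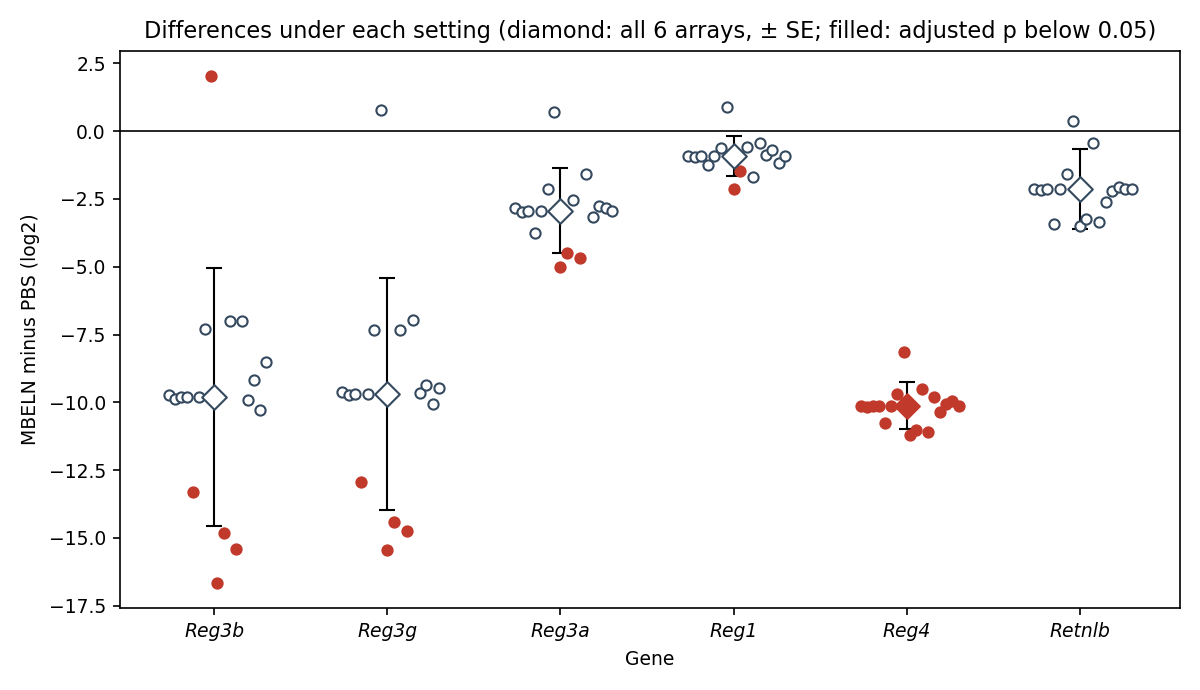
Difference of each member, MBELN minus PBS, in log2 (vertical axis) for each gene (horizontal axis). Diamonds are the fit of all 6 arrays with its SE, circles are the alternatives, and filled symbols have an adjusted p below 0.05. Reg4 lies between -11.20 and -8.16 and is filled throughout, Reg3b spreads from -16.65 to 2.03, and Retnlb is open throughout.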

How the data were processed

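The deposited table holds 1 value per probe set for 6 arrays of Trizol-extracted total RNA. Per the labels' protocols, 90 ng of RNA gave biotinylated cRNA by an Affymetrix procedure. Ion AmpliSeq, a sequencing assay, is named in that label too, which no source used here resolves. The submitters' processing notes name Transcriptome Analysis Console 4.0. The deposited values were read as log2 from their range: no value lay under 0, the highest was 19.93, and medians per array ran from 4.38 to 4.55. This scale is inferred, and how the authors summarized and normalized the arrays is not given in the sources used here.

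Of 28846 probe sets, 6640 were controls and left out. The other 22206 stood for 19505 genes, and a gene with several probe sets took the one with the highest mean. MBELN minus PBS was fitted with limma 3.58.1 (lmFit, eBayes) in R 4.3.3, with no covariate, two-sided, adjusted by Benjamini-Hochberg over all 22206 and called under 0.05. The procedure was tested on simulated data. A fold written "at least" sets the brighter group's mean against the dimmer group's mean after raising each of its values to the receptor level, and is used where all arrays of the dimmer group lie below that level. The number of arrays limits the precision. Probe sets at the highest value numbered 0 to 46 per array. Deviations of same-numbered arrays correlated at -0.03, -0.07 and -0.06, which gave no sign that replicate numbers pair the samples. Because arrays of the same group differ in tissue pattern, these values cannot exclude pairing.

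The members, and 19 lists of family, pathway and marker genes, were chosen with earlier results of these data known. Genes were named as members or family, as up to 4 of a pathway list by smallest p, as at most 2 of a marker list, or as the 3 nearest by likeness. Others were named with their values seen. Promoter windows were aligned with biopython 1.88 (match 1, mismatch -1, gap opening -3, extension -0.5). Other settings were quantile normalization, centring on medians, dropping dim probe sets, trended robust variance, array weights, a replicate block, a block on the hybridisation control level and fits within each level, leaving out each array or both arrays numbered 2, other thresholds, and values capped at 18. Figures used matplotlib 3.10.9.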

Additional observations from a re-analysis of the deposited data

How the results depend on the processing

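Reg4 kept its direction and its call under all 17 alternatives, and Retnlb was called under 0 of 16. The members called numbered 1 in the fit of all 6 arrays, 3 with array weights, 2 within the higher hybridisation control level (MBELN 1, MBELN 3, PBS 2), 5 within the lower level (MBELN 2, PBS 1, PBS 3) and 5 with both arrays numbered 2 left out. Each level has 1 residual degree of freedom and a lone array of 1 group, PBS 2 or MBELN 2, assumed to vary like the others, so its counts carry little weight. Leaving out each array in turn gave 1 to 4 members, the 4 without PBS 2. The probe sets called numbered 1150 with all arrays, 5757 with array weights, 456 with the replicate block, 4174 within the higher level, 7234 within the lower level and 6769 with both arrays numbered 2 left out, 1772 at an adjusted p below 0.10 and 407 below 0.01. Leaving out each array in turn gave 377, without PBS 1, to 3738, without MBELN 2. Among differences called with all arrays or in the alternative, 2 turned. Reg3b was 2.03 within the higher level, where its lone PBS value of 3.09 lay below the receptor level of 4.33. Tlr4 was 3.22 with both arrays numbered 2 left out. Turns of sign without a call on either side were not counted. Within the higher level Reg1 was 0.88, Reg3a 0.72, Reg3g 0.79 and Retnlb 0.38, against negative differences with all arrays. With both arrays numbered 2 left out, Reg3b differed by -14.80, Reg3g by -14.42, Reg3a by -4.51 and Reg1 by -1.46. Each was called in limma (adjusted p 2.09e-06 to 0.0193), with 2 residual degrees of freedom. That fit sets MBELN 1 and MBELN 3, with high heart muscle genes, against PBS 1 and PBS 3, with high Paneth cell genes. Without the array of unlike tissue pattern in each group the spread narrows, so these p-values and counts carry little weight. With array weights, which gave MBELN 2 0.144 and PBS 2 0.519, Reg3b differed by -13.30 and Reg3g by -12.95, both called. Cap1 and Extl3 were called without MBELN 2 (adjusted p = 0.00136 and 0.0156). The replicate block, on numbers that gave no sign of pairing, left 1 member called in limma, Reg4 (adjusted p = 0.0291). It also ended the calls of Jak2, Tlr3, Foxa1 and Foxa3. Trended robust variance ended that of Tlr3 (adjusted p = 0.0704). No result had a probe set of lower mean to try, since each member has 1. Over the results and alternatives run, 571 values kept their side of the threshold, stayed within 1.5 times for a count, or kept most of their nearest genes. A further 97 passed the threshold newly or rose as a count, and 45 lost it or fell as a count. Sets of nearest genes moved in 30 cases, and 2 values turned with a call in either fit. The cause of these changes was not tested. Signal over background limits Reg1, Reg3a, Reg3g and Retnlb, which no MBELN array showed above its receptor level.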

Other observations

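Among genes that interleukin-22 is known to induce in epithelium, some had their highest PBS value in PBS 2, where Reg3b and Reg3g were at background. They were picked with their values in view, and no test was made of their order. Saa1, an acute phase protein also made by gut epithelium, read 3.08, 3.58 and 2.43 in MBELN 1, 2 and 3, against 7.98, 16.99 and 9.75 in PBS 1, 2 and 3. Fut2, the fucosyltransferase of the gut surface, read 3.16, 2.99 and 3.15 in MBELN 1, 2 and 3, against 5.31, 9.51 and 5.56 in PBS 1, 2 and 3. Nos2, the inducible nitric oxide synthase, was lowest in PBS 2 among the PBS arrays, and read 4.15, 2.69 and 3.20 in MBELN 1, 2 and 3, against 9.66, 4.90 and 11.08 in PBS 1, 2 and 3. Saa1, Fut2 and Nos2 did not pass the threshold in limma (adjusted p = 0.127, 0.175 and 0.171).

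Cdx2, an intestinal homeobox factor among the regulators of gut identity, was high in PBS 1 and PBS 3 and below the receptor level in PBS 2, as Reg3b was. It read 2.70, 2.96 and 3.25 in MBELN 1, 2 and 3, against 12.32, 3.45 and 12.88 in PBS 1, 2 and 3, and its adjusted p in limma was 0.270. Its relative Cdx1 read 4.25, 3.85 and 4.59 in MBELN 1, 2 and 3, against 9.58, 8.78 and 9.84 in PBS 1, 2 and 3, so it was high in all 3 PBS arrays. Cdx2 was named with its values seen.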
